A study of Mus musculus with 16 samples.

Results

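The question addressed here was whether the response of chondrocytes to tumor necrosis factor α (TNFα) differed with the *Notch2* genotype. The comparison was the genotype by TNFα interaction, the change with TNFα in *Notch2* mutant cells minus the change with TNFα in wild type cells, and it used all 16 of the 16 RNA-seq libraries and all genes that could be tested. Chondrocyte-enriched cells came from the epiphyses of heterozygous *Notch2*tm1.1Ecan mice, newborn at 3 to 4 days of age and in a C57BL/6 background, and from wild type littermates, with males and females pooled. The mutant allele carries a stop codon in the last exon of *Notch2*, which removes the PEST domain from the protein, and it is present in every cell of the animal rather than in chondrocytes alone. Cells of each genotype were exposed for 6 h to TNFα at 50 ng/ml or to its vehicle, PBS, and each of the 4 groups has 4 libraries that the labels call biological replicates. Whether each library came from its own litter is not given, and p-values measure the spread between these libraries. The labels state that serum was withdrawn only from cells given TNFα, whereas the legends describe both arms as serum-free. TNFα and the withdrawal of serum therefore cannot be told apart within a genotype if the labels are right. Both genotypes were handled alike, but a genotype difference in the response to serum withdrawal would then also enter the interaction. The change with TNFα is to be read with this limit throughout.

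Notch receptors are cut after binding a ligand, and the released intracellular domain joins RBPJ at DNA to activate genes such as *Hes1* and *Heyl*. The PEST domain marks the intracellular domain for degradation, and its loss makes the receptor a gain of function. TNFα acts through its receptors to release NF-κB, which drives cytokine, chemokine and protease genes. In cartilage TNFα is known for lowering matrix gene expression and raising matrix-degrading enzymes, and sustained Notch signaling is known for restraining the chondrocyte phenotype.

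Library sizes ran from 3439726 counts on genes (*Notch2* mutant TNFα replicate 4) to 44237300 (*Notch2* mutant vehicle replicate 4), with a median of 17062419. *Heyl* separated the genotypes in every library, at 0.0788 to 0.549 CPM (counts scaled to library size) over the 8 wild type libraries and 1.17 to 2.28 CPM over the 8 mutant libraries. These levels are low, at 1 to 10 counts in wild type and 7 to 99 counts in mutant libraries. *Hes1*, *Hey1* and *Hey2* separated the genotypes with vehicle, but their ranges overlapped with TNFα. *Notch2* counts cannot show the mutation, since they sum the transcripts of both alleles. Summed over 10 chondrocyte markers, led by *Col2a1*, expression was 45705 to 49857 CPM in wild type vehicle and 28937 to 34012 CPM in mutant vehicle libraries. Wild type vehicle replicate 4 and wild type TNFα replicate 4 stood apart. On the axis from the mutant vehicle mean (0) to the mutant TNFα mean (1) over the 9022 genes called for TNFα in mutant cells, the first lay at 0.365 where the other wild type vehicle libraries lay at 0.0162 to 0.0295. The second lay at 0.852 where the other wild type TNFα libraries lay at 0.957 to 0.986. On the linear CPM scale, and for 584 genes at 10 CPM or more that rose at least 2-fold in mutant cells, wild type vehicle replicate 4 sat a median 15.04% of the way from the other wild type vehicle libraries to the other wild type TNFα libraries. For 324 genes that fell at least 2-fold in mutant cells it sat at 15.9%. Wild type TNFα replicate 4 sat at 81.5% for the first set and 78.1% for the second. The interaction was therefore fitted with all 16 libraries and again with the 14 libraries that remain without these 2.

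**Figure D1:**
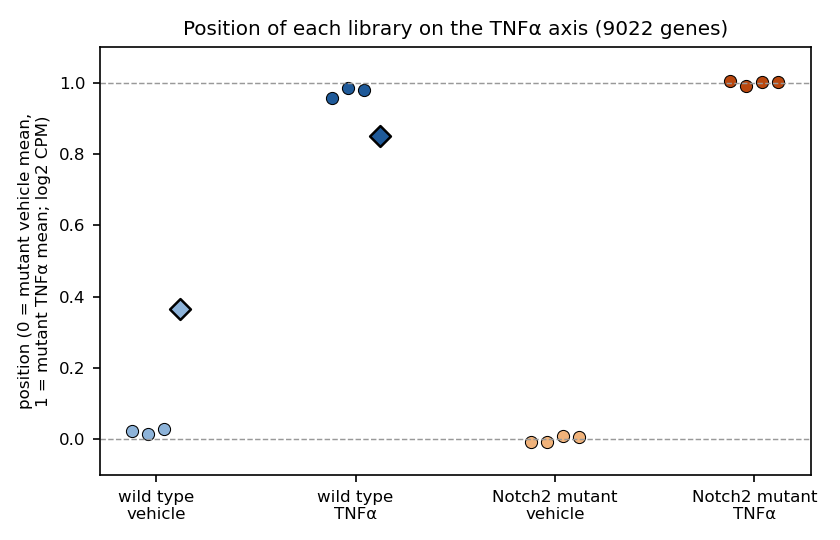
Position of each library (points, 4 per group) between the mutant vehicle mean at 0 and the mutant TNFα mean at 1, from log2 CPM of 9022 genes; diamonds mark the wild type libraries with number 4. Wild type vehicle replicate 4 sits at 0.365, wild type TNFα replicate 4 at 0.852, and the mutant libraries lie close to 0 and 1.

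With 16 libraries, 101 of 21321 genes had an interaction at an adjusted p under 0.05 by the quasi-likelihood test of edgeR, adjusted by the Benjamini-Hochberg method, a share of 0.474%. The change with TNFα was higher in mutant cells for 57 of them and lower for 44, and 1856 genes had an unadjusted p under 0.05. With 14 libraries, 132 of 20955 genes were called (0.63%), 74 higher and 58 lower, and 1756 had an unadjusted p under 0.05. Both fits called 71 genes (0.339% of the genes tested in both) with the same sign, 43 higher and 28 lower, which is 70.3% of the 16-library calls and 53.8% of the 14-library calls. Differences were small against the effect of TNFα itself, for which 39.1% of genes were called in wild type cells and 42.3% in mutant cells. Among the 71 genes the absolute interaction had a median of 0.58 on the log2 scale and was at least 1 in 6. Each of the 71 kept its sign in the fit with 12 libraries that leaves out number 4 from every group, and 62 were called there. These 12 libraries are among those that chose the 71 genes, so this is not independent support.

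The size of the TNFα response over all genes turned on the same 2 libraries. Across 13431 genes at a mean of 1 CPM or more, the mutant and wild type log2 changes were compared by the slope of their major axis. This line has the smallest perpendicular distances to the genes and is not a regression of mutant on wild type values. Its slope was 1.32 with 16 libraries and 0.960 with 14. Without wild type vehicle replicate 4 alone the slope was 0.991, and without wild type TNFα replicate 4 alone it was 1.26. Genes are not independent replicates, and these slopes are descriptions of the libraries.

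**Figure D2:**
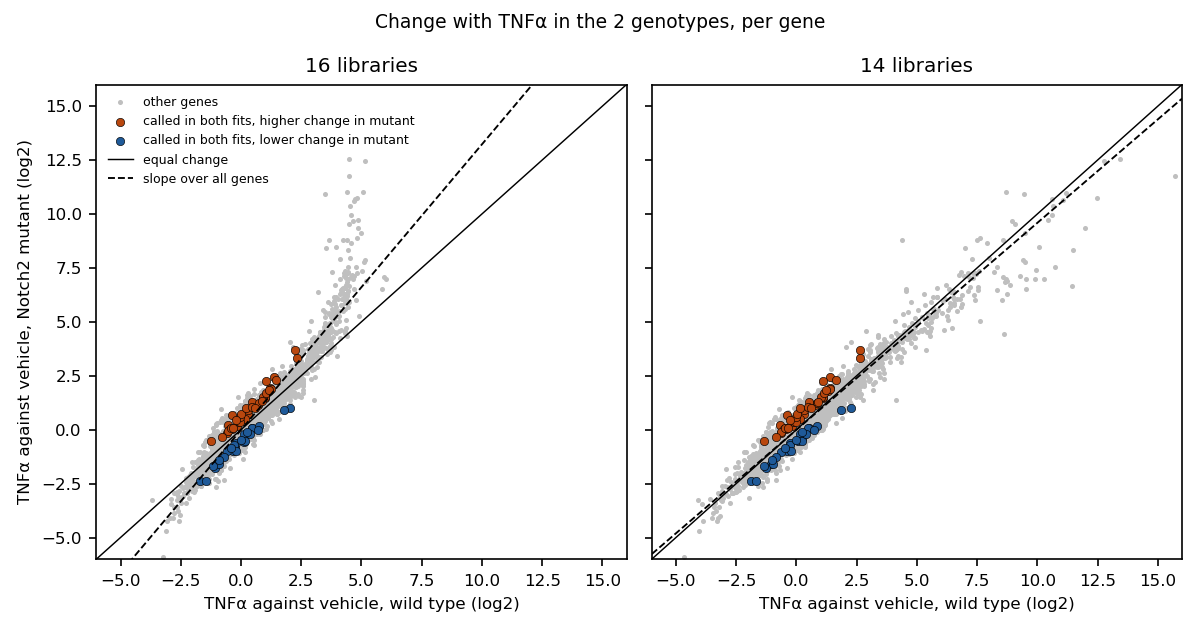
Log2 change with TNFα in wild type (horizontal) and *Notch2* mutant cells (vertical) for each gene at a mean of 1 CPM or more, with 16 libraries (left) and 14 libraries (right); the 71 genes called in both fits are coloured. The slope of the major axis over all genes is 1.32 on the left and 0.960 on the right. The coloured genes lie on the same side of the line of equal change in both panels, as the rule that chose them requires.

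Larger responses of the same direction in mutant cells were the most frequent pattern among the 71 genes. With 16 libraries, 22 genes rose in both genotypes and rose more in mutant cells, and 15 fell in both and fell more in mutant cells. A rise was called in mutant cells only for 8 genes and in wild type cells only for 5, a fall in mutant cells only for 5 and in wild type cells only for 9. Of the others, 2 rose less and 2 fell less in mutant cells, and *Anpep*, *Stat3* and *Galnt18* moved in opposite directions. The genotypes could also be compared under each treatment, with the same libraries, so that these counts describe the interaction and add no evidence to it. Over all genes, 8.82% differed between genotypes with vehicle and 8.75% with TNFα. Of the 28 genes with a lower change in mutant cells, 27 were higher in mutant than in wild type cells with vehicle, and 17 of these no longer differed at the threshold after TNFα. Of the 43 genes with a higher change in mutant cells, 34 were higher in mutant cells after TNFα, and for 26 of these no difference was called with vehicle. With 14 libraries the first count was 27 of 28 and the second 33 of 43.

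*Igfbp5* encodes an insulin-like growth factor (IGF) binding protein of cartilage and bone, and lies on chromosome 1 of GRCm39 at 72897091 to 72914043. It was at 2002, 1921, 1943 and 2165 CPM in the wild type vehicle libraries and at 2797, 2814, 2799.6 and 2768 CPM with TNFα. In mutant cells it was at 1309, 1232, 1294 and 1379 CPM with vehicle and at 3082, 3073, 3333 and 3096 CPM with TNFα. The mutant libraries were the lowest of the 4 groups with vehicle and the highest with TNFα, and no pair of groups overlapped. The rise was 1.39-fold in wild type and 2.41-fold in mutant cells, an interaction of 0.79 (SE 0.068, adjusted p = 1.01e-09), and 0.75 (adjusted p = 3.09e-09) with 14 libraries. Of the 18 genes tested on a list of the IGF axis, *Igfbp5* was the only one called in both edgeR fits. DESeq2 also called *Igfbp3*, with a higher change in mutant cells, with 16 and with 14 libraries. *Igfbp2* was called with 16 libraries alone (-0.38, adjusted p = 0.0354; -0.29 and 0.106 with 14), and the abundant *Igfbp4* was not called (-0.12, adjusted p = 0.717).

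*Anpep*, on chromosome 7 at 79471551 to 79510807, encodes aminopeptidase N, a peptidase of the cell surface. Its levels were 31.3, 31.4, 31.1 and 34.9 CPM in wild type vehicle libraries and 25.8, 23.1, 23.4 and 28.4 CPM with TNFα. The mutant vehicle libraries held 24.5, 22.3, 21.4 and 27.4 CPM and the mutant TNFα libraries 35.5, 37.5, 42.1 and 40.6 CPM. The gene thus fell with TNFα in wild type cells (log2 change -0.36) and rose in mutant cells (0.69), and vehicle and TNFα libraries did not overlap in either genotype. The interaction was 1.04 (SE 0.12, adjusted p = 1.09e-06), and 1.07 (adjusted p = 4.22e-07) with 14 libraries.

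*Kcnf1*, on chromosome 12 at 17222101 to 17226889, encodes a modifier subunit of voltage-gated potassium channels. It was at 5.53 to 7.38 CPM in wild type vehicle and 5.39 to 6.82 CPM in mutant vehicle libraries, ranges that overlapped. With TNFα it was at 14.9, 12.2, 12.8 and 13.1 CPM in wild type and 26.7, 31.6, 30.8 and 22.1 CPM in mutant libraries, without overlap. The interaction was 1.23 (SE 0.17, adjusted p = 3.56e-05), and 1.17 (adjusted p = 0.000101) with 14 libraries.

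*Lurap1l*, on chromosome 4 at 80828883 to 80993687, and *Amigo2*, which encodes a leucine-rich adhesion protein on chromosome 15 at 97142006 to 97145196, had a lower change with TNFα in mutant than in wild type cells. *Lurap1l* was at 46.9, 47.8, 47.2 and 43.2 CPM in wild type vehicle and 38.8, 42.3, 41.7 and 38.8 CPM in wild type TNFα libraries. In mutant cells it was at 119.5, 112, 110.1 and 103 CPM with vehicle and 63.1, 57.0, 53.2 and 50.8 CPM with TNFα, so that a fall to 0.51 of the vehicle level left it above the wild type libraries. Its interaction was -0.78 (SE 0.094, adjusted p = 3.76e-06), and -0.76 (adjusted p = 4.96e-06) with 14 libraries. *Amigo2* was at 2.13 to 3.69 CPM in wild type vehicle and 4.55 to 5.29 CPM in mutant vehicle libraries. With TNFα it was at 10.6 to 13.6 CPM in wild type and 8.83 to 11.1 CPM in mutant libraries, ranges that overlapped. It rose 4.13-fold in wild type and 2.01-fold in mutant cells, an interaction of -1.04 (SE 0.20, adjusted p = 0.00610), and -1.24 (adjusted p = 0.000469) with 14 libraries. The calls of these 5 genes held in each of the 26 alternative fits, which share libraries with the main fit.

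**Figure D3:**
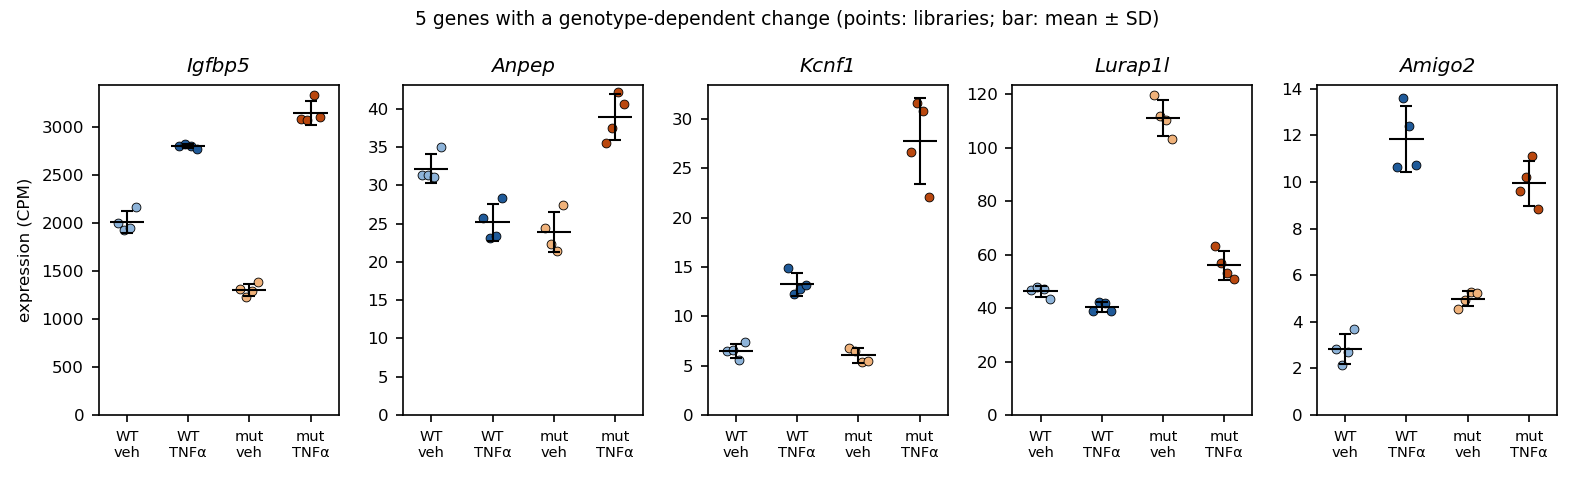
Expression in CPM of 5 genes in every library (points), with the group mean and SD (n = 4 libraries); WT is wild type, mut is *Notch2* mutant and veh is vehicle. *Igfbp5* is lowest in mutant vehicle and highest in mutant TNFα libraries, *Kcnf1* separates the genotypes with TNFα, and *Lurap1l* and *Amigo2* separate them with vehicle.

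Promoters were read for letters that the factors named above are known to bind. RefSeq promoters of GRCm38.p6, 250 bases before to 50 after the start, were matched for 27 of the 43 genes with a higher change and 20 of the 28 with a lower change. The NF-κB motif searched was GGGANNTTCC and the RBPJ motif TGGGAA, each on both strands; matches of the 2 can overlap each other, and none of the sequences shown holds the RBPJ letters. The NF-κB letters stood in 1.74% of the promoters of all 13067 tested genes that could be matched, in 2 of the 27 promoters of the first set and in 0 of the 20 of the second. The RBPJ letters stood in 27.1% of all, in 6 of 27 and in 5 of 20. A match is a description and not a site, and no test was run on these counts. The 2 promoters with the NF-κB letters are shown, *Cdhr1* at chr14:37098348-37098597 and *Tnn* at chr1:160153576-160153825, beside that of *Igfbp5* at chr1:72874866-72875115, the gene with the smallest adjusted p, which held neither motif. All are on the minus strand, end at the base before the start, and have the matching letters in capitals.
Cdhr1: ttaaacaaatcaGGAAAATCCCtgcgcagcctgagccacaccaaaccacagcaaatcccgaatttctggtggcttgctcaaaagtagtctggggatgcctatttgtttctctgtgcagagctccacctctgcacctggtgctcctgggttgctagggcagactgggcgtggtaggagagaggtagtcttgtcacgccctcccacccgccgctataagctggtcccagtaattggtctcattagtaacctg
Tnn: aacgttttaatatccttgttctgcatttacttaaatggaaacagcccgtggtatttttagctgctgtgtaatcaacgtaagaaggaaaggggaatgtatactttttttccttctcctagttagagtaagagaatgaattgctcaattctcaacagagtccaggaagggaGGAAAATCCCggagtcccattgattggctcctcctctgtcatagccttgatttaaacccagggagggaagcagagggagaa
Igfbp5: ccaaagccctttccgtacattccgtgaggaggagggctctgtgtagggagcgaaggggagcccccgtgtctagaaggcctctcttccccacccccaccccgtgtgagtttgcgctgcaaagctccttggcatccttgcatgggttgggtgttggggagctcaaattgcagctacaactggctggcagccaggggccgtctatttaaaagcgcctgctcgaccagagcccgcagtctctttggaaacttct

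Genes of the pericellular and adhesive matrix were among those with a higher change in mutant cells; they were grouped after their values were seen. *Tnc*, which encodes tenascin C, was at 711 to 786 CPM in wild type vehicle libraries and fell to 478 to 608 CPM with TNFα. In mutant cells it was at 752 to 869 CPM with vehicle and at 783 to 867 CPM with TNFα, an interaction of 0.50 (SE 0.092, adjusted p = 0.00383), and 0.54 with 14 libraries. The tenascin gene *Tnn* was at 15.4 to 18.7 CPM in wild type vehicle and 14.3 to 18.7 CPM in mutant vehicle libraries. With TNFα it reached 18.5 to 22.8 CPM in wild type and 25.8 to 36.2 CPM in mutant libraries (0.65, adjusted p = 0.0208; 0.62 with 14 libraries), and 7 of the 16 fits without 1 library lost the call. *Tnfaip6* encodes TSG-6, a hyaluronan-binding protein induced by inflammation. It rose from 6.62 to 7.08 CPM with vehicle to 12.4 to 16.8 CPM with TNFα in wild type libraries, and from 8.16 to 8.86 CPM to 29.9 to 32.3 CPM in mutant libraries. Its interaction was 0.70 (SE 0.14, adjusted p = 0.00966), and 0.61 with 14 libraries. *Lama4*, a laminin chain, had a called rise in mutant cells only, from 174 to 195 CPM with vehicle to 256 to 293 CPM with TNFα, and wild type TNFα libraries held 146 to 177 CPM (an interaction of 0.53 in both fits). *Itga11*, the α subunit of a collagen receptor, fell in both genotypes, to 51.0 to 56.9 CPM in wild type and to 70.2 to 75.6 CPM in mutant cells (an interaction of 0.44, and 0.49 with 14 libraries).

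Some enzymes and secreted proteins, also grouped after their values were seen, had a higher change in mutant cells, while others (*Tgfb3*, *Tnfrsf11b*, *Prss35* and *Adam8*) had a lower one. *Enpp2*, which encodes autotaxin, the enzyme that makes lysophosphatidic acid, was lower in mutant vehicle libraries, at 141 to 159 CPM against 194 to 264 CPM in wild type. After TNFα it was at 462 to 506 CPM in wild type and 503 to 518 CPM in mutant libraries, an interaction of 0.60 (SE 0.097, adjusted p = 0.000810), and 0.46 with 14 libraries. *Xdh*, xanthine dehydrogenase, rose from 17.97 to 26.4 CPM to 50.9 to 64.5 CPM in wild type cells, and from 12.5 to 14.2 CPM to 59.9 to 69.1 CPM in mutant cells (0.83, adjusted p = 0.000785; 0.64 with 14 libraries). For these 2 genes, as for *Tgm2*, a transglutaminase (0.64, adjusted p = 0.00971; 0.50 with 14 libraries), a genotype difference was called with vehicle and none after TNFα, in both fits. *Tgm2* lost its call in 2 of the 16 fits without 1 library. *Ndnf* and *Angptl2*, secreted glycoproteins, had no difference between genotypes called with vehicle, where *Ndnf* was at 33.8 to 36.1 CPM in wild type and 34.2 to 40.5 CPM in mutant libraries. After TNFα *Ndnf* was at 13.2 to 17.1 CPM in wild type and 24.0 to 26.1 CPM in mutant libraries, an interaction of 0.73 (SE 0.11, adjusted p = 0.000521), and 0.80 with 14 libraries. *Angptl2* fell in wild type cells, from 162 to 178 CPM to 127 to 137 CPM, and was at 167 to 181 CPM and 175 to 190.2 CPM in mutant cells with vehicle and TNFα (0.47, adjusted p = 0.00107; 0.48 with 14 libraries).

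Signaling genes with a higher change in mutant cells included *Jak2* and *Stat3*, a kinase and a transcription factor of cytokine receptors. *Jak2* was at 36.9 to 48.2 CPM in wild type and 35.1 to 41.5 CPM in mutant vehicle libraries. It rose to 78.8 to 83.7 CPM in wild type and to 106 to 112 CPM in mutant libraries, an interaction of 0.51 (SE 0.096, adjusted p = 0.00542), and 0.42 (adjusted p = 0.0153) with 14 libraries. *Stat3* had the smaller effect, at 182 to 191 CPM in wild type and 205 to 236 CPM in mutant TNFα libraries (0.33, adjusted p = 0.0413, and 0.35 with 14 libraries). Its call was lost in 12 of the 16 fits that leave out 1 library and with the replicate number as a block. *Irak3*, an inhibitor of Toll-like receptor and interleukin-1 signaling, rose to 30.0 to 36.5 CPM in wild type and to 46.0 to 58.2 CPM in mutant cells. Wild type vehicle replicate 4 held 18.7 CPM of it and the other wild type vehicle libraries 12.9 to 13.5 CPM. Its interaction was 0.74 with 16 libraries (adjusted p = 0.00966) and 0.53 with 14 (adjusted p = 0.0332).

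Of 29 cytokine and chemokine genes, both edgeR fits called *Ccl9* and *Tnfrsf11b*. DESeq2 also called *Csf1* and *Cxcl12*, with a lower change in mutant cells, with 16 and with 14 libraries. *Ccl9*, a chemokine for myeloid cells, was at 8.68 to 15.9 CPM in wild type and 8.21 to 10.2 CPM in mutant vehicle libraries. With TNFα it reached 60.7, 56.6, 61.7 and 47.7 CPM in wild type and 93.2, 94.0, 89.0 and 87.5 CPM in mutant libraries. The interaction was 0.99 (SE 0.20, adjusted p = 0.0340), and 0.69 (adjusted p = 0.000639) with 14 libraries. The call was lost in 10 of the 16 fits without 1 library, with the replicate block and with 1 surrogate variable. *Tnfrsf11b* encodes osteoprotegerin, the decoy receptor for the osteoclast factor RANKL. It was lower in mutant cells under both treatments, at 257 to 276 CPM against 439 to 479 CPM with vehicle and at 91.9 to 107 CPM against 231 to 276 CPM with TNFα, and its fall was larger in mutant cells (-0.47, SE 0.087, adjusted p = 0.00383; -0.38 with 14 libraries).

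Genes of the contractile apparatus fell with TNFα in both genotypes. All 20 genes of a list of contractile and SRF-YAP target genes were tested, 19 fell in wild type and 20 in mutant cells. The median interaction was -0.25 over the list and -0.01 over all genes tested, and it was -0.04 over the list with 14 libraries. Both fits called *Cnn1* (calponin) and *Mylk* (myosin light chain kinase). *Cnn1* was at 32.9 to 36.9 CPM in wild type and 68.0 to 74.7 CPM in mutant vehicle libraries, and TNFα brought it to 9.27 to 14.7 CPM and 11.8 to 15.03 CPM. Its interaction was -0.68 (adjusted p = 0.0305), and -0.50 (adjusted p = 0.0436) with 14 libraries, and 6 of the 16 fits without 1 library, the fit with the replicate block and that with 1 surrogate variable lost the call. *Mylk* was at 49.3 to 52.5 CPM and 113 to 129.6 CPM with vehicle, and at 22.5 to 29.6 CPM and 36.4 to 44.8 CPM with TNFα (-0.60, SE 0.10, adjusted p = 0.00152; -0.52 with 14 libraries). *Rgs4*, a regulator of G protein signaling, had an interaction of -0.70, and -0.61 with 14 libraries. Its call was lost in the fit with 12 libraries. *Rgs4* and *Cnn1* were higher in mutant cells with vehicle. After TNFα no genotype difference was called for either with 16 libraries, but with 14 libraries both were higher in mutant cells (edgeR's adjusted p = 0.0238 for *Rgs4* and 0.000251 for *Cnn1*).

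*Tgfb3*, which encodes transforming growth factor β3, was at 245, 256, 256 and 233 CPM in wild type vehicle and 475, 459, 439.7 and 429.7 CPM in mutant vehicle libraries. With TNFα it was at 80.0, 76.5, 77.1 and 124 CPM in wild type and 88.2, 91.0, 89.0 and 80.3 CPM in mutant libraries. The high value is wild type TNFα replicate 4. The interaction was -0.90 with 16 libraries (adjusted p = 0.0445) and -0.66 with 14 (adjusted p = 1.76e-06). The call was lost in 12 of the 16 fits without 1 library, with the replicate block and with 1 surrogate variable. *Tgfb3* was the only gene of the 30 of the BMP and TGF-β pathway that both fits called. *Id3*, a transcriptional regulator induced by BMP, was called with 14 libraries alone (-0.64, adjusted p = 0.000101), and was at 28.02 to 31.05 CPM in mutant TNFα libraries and 34.4 to 90.0 CPM in wild type TNFα libraries, of which number 4 was the highest. The list had a median interaction of -0.14 with 16 and -0.09 with 14 libraries.

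The 20 genes of sterol synthesis had a median interaction of 0.23, and 19 were above 0; with 14 libraries the median was 0.28 and all 20 were above 0. In wild type cells 8 of the 20 fell and 1 rose with TNFα, and in mutant cells 7 fell and 5 rose. The synthesis enzyme *Sqle* fell in both genotypes, to 45.2 to 57.1 CPM in wild type and to 71.9 to 82.4 CPM in mutant TNFα libraries. It was called with 14 libraries alone (0.37, adjusted p = 0.0325), and *Hmgcs1*, at 0.22, was not called (adjusted p = 0.349).

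The remaining genes with the largest interactions served other functions. *Gas7*, an actin-binding protein, had an interaction of 1.46 (adjusted p = 0.0451), and 1.05 (adjusted p = 2.07e-05) with 14 libraries. Wild type vehicle replicate 4 held 14.2 CPM of *Gas7* and the other libraries of its group 6.43 to 7.61 CPM. The call of *Gas7* was lost in 13 of the 16 fits without 1 library, with the replicate block and with 1 surrogate variable. *Cdhr1*, a cadherin-related gene, rose to 9.60 to 10.6 CPM in wild type and 9.38 to 16.3 CPM in mutant TNFα libraries, ranges that overlapped (1.06, adjusted p = 0.00966; 1.06 with 14 libraries). *Rassf4* reached 7.33 to 8.47 CPM in wild type and 10.2 to 13.9 CPM in mutant TNFα libraries (0.81, adjusted p = 0.0267; 0.88 with 14 libraries), and 7 of the 16 fits without 1 library lost the call. *Serpina3e-ps* had the highest value of the 71 genes (3.30, SE 0.68, adjusted p = 0.0101, and 3.12 with 14 libraries). However, it is a pseudogene in a family of near-identical copies, at 2.57 CPM or less in every library, and its counts are uncertain. Its call was lost in 2 of the 16 fits without 1 library and with 12 libraries. *Lrp4*, an antagonist of Wnt signaling at the cell surface, was the only one of 35 Wnt pathway genes called in both fits, and its levels with TNFα were 11.5 to 20.7 CPM in wild type and 20.4 to 22.4 CPM in mutant libraries (0.77, adjusted p = 0.0314; 0.89 with 14 libraries). Its call was lost in 11 of the 16 fits without 1 library and with 1 surrogate variable.

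Other genes had a lower change in mutant cells. *Foxs1*, a forkhead factor, rose in both genotypes and less so in the mutant (-0.86, adjusted p = 0.0391; -0.93 with 14 libraries), and its call was lost in 10 of the 16 fits without 1 library and with filterByExpr, an alternative filter on low counts. *Mecom*, a zinc finger transcription factor, rose in wild type cells from 7.72 to 10.2 CPM to 13.8 to 16.1 CPM, while mutant libraries were at 12.1 to 14.7 CPM with vehicle and 12.4 to 15.6 CPM with TNFα (-0.72, adjusted p = 0.0120; -0.76 with 14 libraries). *Mylip*, a ubiquitin ligase, was at 29.3 to 34.9 CPM with vehicle and 33.5 to 38.0 CPM with TNFα in wild type libraries. In mutant cells it fell from 34.1 to 39.3 CPM to 22.6 to 28.2 CPM, an interaction of -0.68 (SE 0.11, adjusted p = 0.000521), and -0.73 with 14 libraries. *Prss35*, a serine protease, had a called fall in mutant cells only (-0.66, adjusted p = 0.0101; -0.61 with 14 libraries). *Adam8*, a surface metalloprotease, rose in wild type cells from 9.78 to 10.53 CPM to 14.6 to 19.9 CPM and was at 15.05 to 19.2 CPM and 17.1 to 19.5 CPM in mutant libraries (-0.61, adjusted p = 0.0340; -0.70 with 14 libraries), and 10 of the 16 fits without 1 library lost its call. *Ier5* was the only one of 25 immediate early genes called in both edgeR fits (-0.37, adjusted p = 0.0319, and -0.35 with 14 libraries). Its call was lost in 7 of the 16 fits without 1 library, with the replicate block in 16 and in 14 libraries, and with 12 libraries. DESeq2 also called *Klf4*, with a higher change in mutant cells, with 16 and with 14 libraries.

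**Figure D4:**
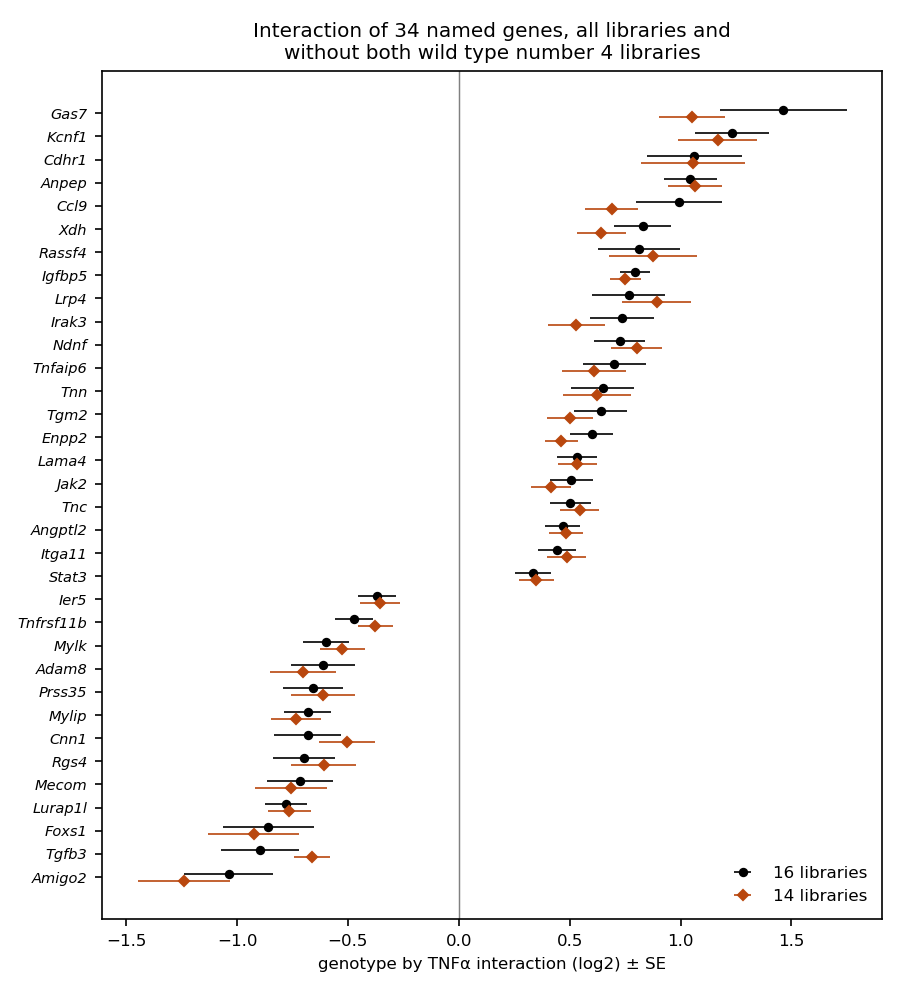
Genotype by TNFα interaction on the log2 scale with its SE for 34 of the named genes called in both fits, with 16 libraries (black circles) and with 14 libraries (orange diamonds); *Serpina3e-ps*, at 3.30, is left out of the plot. The genes were chosen for calls of the same sign in both fits, so the kept sign follows from that rule. The widest move is for *Gas7*, from 1.46 to 1.05.

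For lists of inflammatory genes the median interaction moved with the 2 libraries that stood apart. A list of 34 interferon-responsive and antigen presentation genes had a median interaction of 1.34 with 16 libraries, and all 34 were above 0. With 14 libraries the median was -0.27 and 4 were above 0. Leaving out wild type vehicle replicate 4 alone gave -0.21, and leaving out wild type TNFα replicate 4 alone gave 1.28. *Psmb8*, a subunit of the immunoproteasome, shows the values behind this: 1.55, 1.45, 1.54 and 24.0 CPM in wild type vehicle libraries against 2.28 to 2.82 CPM in mutant vehicle libraries, and 119 to 152 CPM against 135 to 152 CPM with TNFα. With 16 libraries edgeR called 0 of the 34 genes (5 at an unadjusted p under 0.05), and DESeq2 called 1, *Mx1*. With 14 libraries edgeR called *Psmb8* (-0.75, adjusted p = 0.0447) and *Oasl2* (-0.94, adjusted p = 0.0332), and DESeq2 called *Oasl2*, *Psmb8* and *Tap2*, all lower. With 14 libraries 12 of the 34 had an unadjusted p under 0.05 in edgeR, beside 1756 of 20955 over all genes. With 16 libraries the count over all genes was 1856 of 21321. For the 27 genes of the TNF receptor and NF-κB list the median went from 0.34 to 0.07, and edgeR called 0 in either fit (6 and 5 at an unadjusted p under 0.05; DESeq2 called 1 and 0). The abundant *Tnfaip2* had 0.32 (adjusted p = 0.801) and -0.03 (adjusted p = 0.974). For the 29 cytokines and chemokines the median went from 0.54 to -0.13. Over all genes edgeR called 0.474% with 16 libraries and 0.63% with 14, so 0 calls in lists of this size say little about them.

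**Figure D5:**
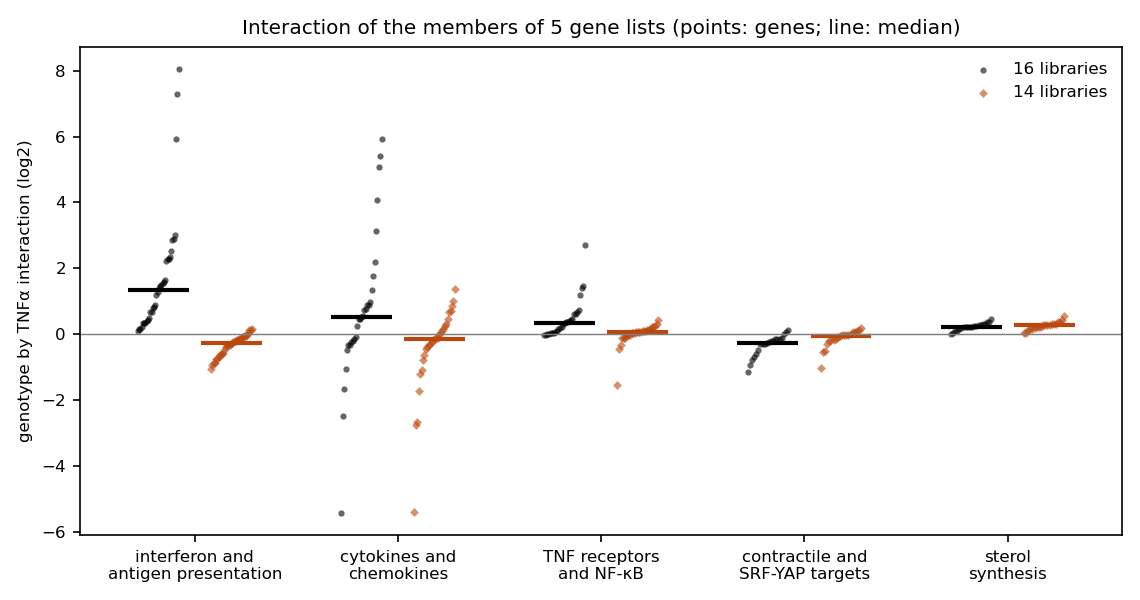
Genotype by TNFα interaction on the log2 scale for each tested gene (points) of 5 lists, with the list median (line), with 16 libraries (black) and 14 libraries (orange). The interferon and antigen presentation genes move from a median of 1.34 to -0.27, and the sterol synthesis genes stay at 0.23 and 0.28.

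Without the 2 libraries, several strongly induced genes were called in the opposite direction to their 16-library value. *C3*, the central complement component, was at 22.7, 26.95, 24.8 and 203 CPM in wild type vehicle and 46.6, 47.3, 44.5 and 45.2 CPM in mutant vehicle libraries. With TNFα it was at 998 to 1076 CPM in wild type and 1018 to 1078 CPM in mutant libraries. The value of 203 CPM is wild type vehicle replicate 4, and the interaction went from 0.63 (adjusted p = 0.890) to -0.88 (adjusted p = 3.09e-09). *Mmp9*, gelatinase B, was at 0.305 to 0.608 CPM in the other 3 wild type vehicle libraries, 6.67 CPM in number 4 and 1.14 to 1.85 CPM in mutant vehicle libraries, and at 38.7 to 47.2 CPM and 40.2 to 46.4 CPM with TNFα. Its interaction went from 0.37 to -1.72 (adjusted p = 0.000323). *Mmp3*, stromelysin 1, went from 0.30 to -0.74 (adjusted p = 1.38e-05), with 362, 365, 372 and 270.3 CPM in wild type and 302, 277, 257 and 248 CPM in mutant TNFα libraries.

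*Tslp*, an alarmin cytokine, was called with 14 libraries alone. Among such genes at a mean of 1 CPM or more in a group it had the largest interaction. It was -2.75 (SE 0.33, adjusted p = 2.83e-06), against -1.65 (adjusted p = 0.428) with 16. *Tslp* rose to 13.2, 14.7, 16.03 and 8.41 CPM in wild type and to 7.08, 5.32, 3.33 and 5.24 CPM in mutant libraries, and those ranges did not overlap. The chemokine *Ccl7* was at 19.8 to 21.9 CPM in the other 3 wild type vehicle libraries, 63.0 CPM in number 4 and 31.3 to 38.7 CPM in mutant vehicle libraries, and it was called with 14 libraries (-0.77, adjusted p = 4.78e-06). *Adamts6*, a metalloprotease (-0.78, adjusted p = 0.0485), and *Cdkn1a*, the cell cycle inhibitor p21 (-0.30, adjusted p = 0.0416), were called in the same direction. *Pth1r*, the receptor for parathyroid hormone and its related peptide, was the only hypertrophy gene of 15 called with 14 libraries (0.77, adjusted p = 0.00370). In all, 61 genes were called with 14 libraries alone, 31 higher and 30 lower, and 30 with 16 libraries alone, 14 higher and 16 lower. None of the latter changed sign with 14 libraries.

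A further list held phagosome, inflammation and Notch genes that the study measured or drew from these libraries, and it is not independent of them. Of its 15 genes edgeR called 0 in either fit (0 and 2 at an unadjusted p under 0.05) and DESeq2 0. *Il6*, the cytokine interleukin 6, was at 0.152 to 0.714 CPM in wild type and 0.467 to 0.552 CPM in mutant vehicle libraries. With TNFα it was at 0.394 to 0.993 CPM in wild type and 1.06 to 2.52 CPM in mutant libraries, without overlap. The interaction was 0.48 (SE 0.61, adjusted p = 0.886), and -0.13 (SE 0.59, adjusted p = 0.989) with 14 libraries, and a difference in induction was not detectable at this depth. *Il1b* was detected in 1 of 8 vehicle libraries, wild type vehicle replicate 4 at 0.0595 CPM, and was at 0.583 CPM or less in wild type and 0.234 to 1.13 CPM in mutant TNFα libraries. The interactions of the myeloid genes *Adgre1*, *Marco* and *Fcer1g* were 0.10, 0.33 and 0.27. *Hes1* fell in both genotypes, from 13.2 to 19.7 CPM to 2.03 to 5.64 CPM in wild type cells and from 22.8 to 25.8 CPM to 3.03 to 5.79 CPM in mutant cells, an interaction of 0.02 (adjusted p = 1.00), and 0.54 (adjusted p = 0.434) with 14 libraries. Of the 25 Notch pathway genes tested edgeR called 0 in either fit (2 and 3 at an unadjusted p under 0.05) and DESeq2 0, and the median interaction was 0.03. Over all genes edgeR called 0.474% with 16 libraries and 0.63% with 14. At an unadjusted p under 0.05 were 1856 of 21321 and 1756 of 20955 genes. The 0 calls among these 15 and 25 genes are near those shares and are no result about the lists.

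Cartilage genes fell in both genotypes. Of 24 chondrocyte matrix and SOX genes, 19 fell in wild type and 21 in mutant cells. *Col2a1*, type II collagen, had an interaction of -0.23 (adjusted p = 0.391). *Matn1*, matrilin 1, was called with 16 libraries alone, at 195 to 218 CPM in wild type and 85.5 to 103 CPM in mutant TNFα libraries (-0.41, adjusted p = 0.0305; -0.31 and 0.0848 with 14). The list median was -0.18, and -0.15 with 14 libraries. For the other lists the median with 16 libraries was -0.04 for 22 FGF pathway genes. Of these edgeR called 0 in either fit (3 and 2 at an unadjusted p under 0.05) and DESeq2 0, beside edgeR shares over all genes of 0.474% and 0.63%. The median was 0.02 for 23 matrix proteases and inhibitors, of which edgeR called *Mmp3*, *Mmp9* and *Adamts6*, all lower, with 14 libraries. DESeq2 also called *Adamts15* and *Mmp2*, both higher in mutant cells, in both fits, and *Mmp13*, higher, with 14 libraries. The median was 0.14 for 14 prostaglandin, nitric oxide and adhesion genes, with *C3* called with 14 libraries. For 22 cell cycle genes it was -0.15, with *Cdkn2b*, an inhibitor of cyclin-dependent kinases, called by edgeR with 16 libraries (0.43, adjusted p = 0.0265). DESeq2 called *Cdkn2b* and *Cdkn1a* in both fits.

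Markers of other cells that the cultures could hold differed between genotypes beside these results. Summed over 12 macrophage markers, expression was 74.8 to 80.9 CPM in wild type vehicle, 89.2 to 104 CPM in wild type TNFα, 140.2 to 164 CPM in mutant vehicle and 186 to 211 CPM in mutant TNFα libraries. Over 8 smooth muscle and pericyte markers, which share contractile genes with the list above, it was 2570 to 2836 CPM, 1573 to 1881 CPM, 4433 to 5053 CPM and 2622 to 2843 CPM in the same order. An interaction was called for 0 of the macrophage markers and for 1 of the smooth muscle markers, *Cnn1*, in both fits. The shares over all genes were 0.474% with 16 and 0.63% with 14 libraries, so the 0 is no result about macrophages. The markers of T and NK cells and of erythroid cells were too low to be tested. In bulk libraries fewer cells of a type and less RNA per cell cannot be told apart, and the part of these cells in the interactions was not tested.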

How the data were processed

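RNA-seq was analyzed in 16 libraries of chondrocyte-enriched cells, 4 in each of 4 groups taken from the labels. The authors made stranded libraries, sequenced them as 75 bp pairs in one pool, trimmed, aligned with HISAT2 and counted reads on genes with HTSeq; the deposited values are whole-number counts without normalization. The submitters' notes name HISAT2 2.1.0 and GRCm38, whereas 2147 gene identifiers belong to a numbering used with GRCm39; the strand setting of the counting is not given in the sources used here. Gene names and positions are from GENCODE M39 (GRCm39). The 5 entries per library that name no gene took 8.81 to 12.1% of a library's total and do not enter any value.

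Counts were tested with edgeR 4.0.16 in R 4.3.3 (TMM normalization, robust quasi-likelihood fit to all groups, genes with 10 counts or more in sum), with Benjamini-Hochberg adjustment over all genes tested, an adjusted p under 0.05 and no fold cutoff. The fit was repeated without wild type vehicle replicate 4 and wild type TNFα replicate 4. CPM are TMM-scaled. The script was tested on simulated data. Replicates of a group differed by more than sampling noise. The genes examined, the lists and the 2 libraries left out were chosen with earlier results of these data known. Named genes are 5 given in advance, the 10 largest interactions in each direction among genes called in both fits at 1 CPM or more in a group, genes the study measured, list members called in both fits, and others said to be chosen after their values were seen, among which are *Tnc*, *Tnn*, *Jak2*, *Stat3*, *Irak3*, *Tnfaip6*, *Itga11*, *Lama4*, *Enpp2*, *Angptl2*, *Tgm2*, *Ndnf*, *Adam8* and list members called in 1 fit; some genes that meet this rule are not reported here. Alternatives were DESeq2 1.42.0, RLE normalization, filterByExpr, no filter, the replicate number as a block, 1 surrogate variable from sva 3.50.0, an adjusted p under 0.1, a log2 value of at least 1, and each library left out in turn; slopes and list medians without 1 of the 2 libraries were added after the data were seen.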

Additional observations from a re-analysis of the deposited data

Results flagged for a closer look

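The difference between genotypes in the change with TNFα was called in both fits for 35 of the genes named, and each is a test of the difference itself (edgeR's quasi-likelihood test). Higher changes in mutant cells, on the log2 scale with 16 libraries, were 0.79 for *Igfbp5*, 1.04 for *Anpep*, 1.23 for *Kcnf1*, 3.30 for *Serpina3e-ps*, 1.46 for *Gas7*, 1.06 for *Cdhr1*, 0.99 for *Ccl9*, 0.83 for *Xdh*, 0.81 for *Rassf4* and 0.77 for *Lrp4*. Others were 0.50 for *Tnc*, 0.65 for *Tnn*, 0.51 for *Jak2*, 0.33 for *Stat3*, 0.74 for *Irak3*, 0.70 for *Tnfaip6*, 0.44 for *Itga11*, 0.53 for *Lama4*, 0.60 for *Enpp2*, 0.47 for *Angptl2*, 0.64 for *Tgm2* and 0.73 for *Ndnf*. Lower changes in mutant cells were -0.78 for *Lurap1l*, -1.04 for *Amigo2*, -0.90 for *Tgfb3*, -0.86 for *Foxs1*, -0.72 for *Mecom*, -0.70 for *Rgs4*, -0.68 for *Cnn1*, -0.68 for *Mylip*, -0.66 for *Prss35*, -0.47 for *Tnfrsf11b*, -0.60 for *Mylk*, -0.37 for *Ier5* and -0.61 for *Adam8*.

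In 23 of 259 groups of 4 libraries for the named genes 1 library stood far from the others. Of these, 11 were wild type vehicle replicate 4 and 6 were wild type TNFα replicate 4. Chance gives about 1 in 20, but some of these genes were named because their calls changed without those libraries. The count therefore cannot be set against chance. Wild type vehicle replicate 4 held 34.9 CPM for *Anpep*, 14.2 CPM for *Gas7*, 285 CPM for *Fgfr3*, 0.0595 CPM for *Il1b*, 18.7 CPM for *Irak3*, 63 CPM for *Ccl7*, 39.4 CPM for *Oasl2*, 24 CPM for *Psmb8*, 62.7 CPM for *Mmp3*, 6.67 CPM for *Mmp9* and 203 CPM for *C3*. Wild type TNFα replicate 4 held 124 CPM for *Tgfb3*, 14.7 CPM for *Cnn1*, 116 CPM for *Fgfr3*, 276 CPM for *Tnfrsf11b*, 270.3 CPM for *Mmp3* and 90.0 CPM for *Id3*. For these genes, other than *Anpep*, the library that stood apart lay on the side of the other treatment. Wild type vehicle replicate 4 was at 0.365 on the axis of the mutant TNFα response. The other values were 3333 CPM for *Igfbp5* in mutant TNFα replicate 3, 0.276 CPM for *Serpina3e-ps* and 12.1 CPM for *Mecom* in mutant vehicle replicate 1, 88.6 CPM for *Itga11* in mutant vehicle replicate 3, and 3.43 CPM for *Cdhr1* and 0.914 CPM for *Vav1* in wild type vehicle replicate 2.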

How the results depend on the processing

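The 71 genes called in both fits kept their sign in every alternative, but these fits reuse the libraries that chose the genes. They are therefore not independent support. Of the 71, 71 were called with RLE or without a filter beyond 1 count, and 71 with DESeq2. With filterByExpr 68 were called, with 1 surrogate variable 64, and when 1 library was left out 48 to 66. The number of interaction calls, 101 (57 higher, 44 lower in mutant cells), was 266 (135 and 131) without a filter beyond 1 count, 174 with DESeq2 (109 higher), 156 in 12 libraries without number 4 (93 higher), and 10 (7 and 3) at a log2 value of at least 1. Leaving out 1 library gave 51 to 156 calls, 29 to 81 higher and 22 to 75 lower; it was 156 without mutant vehicle replicate 1, 66 without mutant vehicle replicate 2 and 51 without mutant TNFα replicate 3. The 132 calls in 14 libraries were 218 with DESeq2. TNFα calls ranged from 7494 to 8676 in wild type and from 8268 to 9310 in mutant cells when 1 library was left out. The major axis slope of 1.32 was 0.960 in 14 libraries, 1.25 without a CPM minimum and 0.895 with both. Without a CPM minimum the correlation of the 2 responses was lower (r = 0.673 and 0.714 with 16 and 14 libraries, against 0.944 and 0.965). The slope then depends more on the kind of line fitted. The values without wild type vehicle replicate 4 (0.991) or wild type TNFα replicate 4 (1.26) were chosen after seeing the data. The causes were not tested.

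With the replicate number as a block 74 genes were called, 44 higher and 30 lower, and 60 of the 71 remained. Same-numbered libraries showed no clear shared deviation. Correlations of their deviations from group means were -0.178 to 0.120, above 0.1 in 1 of 24 pairs, against 4 of 72 pairs with different numbers. These correlations cannot exclude a pairing or a shared litter, and the main fits did not use the numbers as pairs.

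Signs turned as follows, in the order of 14 libraries, 14 libraries with the replicate block, and 12 libraries. *Il6* (0.48) was -0.13, -0.090 and -0.031; *Oasl2* (2.28) was -0.94, -0.98 and -1.02; *Psmb8* (1.58) was -0.75, -0.74 and -0.77. *Mmp3* (0.30) was -0.74, -0.76 and -0.72; *Mmp9* (0.37) was -1.72, -1.69 and -1.70; *C3* (0.63) was -0.88, -0.88 and -0.89. With DESeq2 in 14 libraries *Oasl2* was -0.93, *Psmb8* -0.75, *Mmp3* -0.73, *Mmp9* -1.73 and *C3* -0.87. *Hes1* (0.02) was -0.00780 with DESeq2 and *Hey2* (-0.96) was 0.11 in 14 libraries with the replicate block. When 1 library was left out, the ranges that crossed 0 were -0.16 to 0.53 for *Marco*, -0.018 to 0.20 for *Adgre1*, -0.30 to 0.71 for *Il6*, -0.17 to 0.47 for *Hes1*, -0.70 to 0.074 for *Ccl7*, -0.88 to 2.66 for *Oasl2*, -0.71 to 1.94 for *Psmb8*, -0.66 to 0.52 for *Mmp3*, -1.68 to 0.71 for *Mmp9* and -0.87 to 0.92 for *C3*. The 3439726 counts of mutant TNFα replicate 4 limit precision for genes of low counts, such as *Il6*.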
